A study of Mus musculus with 34 samples.

Results

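The carbonic anhydrases described here are 8 genes of mouse colon tumour organoids, Car9, Car1, Car2, Car4, Car7, Car8, Car12 and Car13. They were picked by gene name, with their levels in these libraries known, so their own values are a description and carry no test. The deposited table held 54354 genes, of which 16 were carbonic anhydrases, the 8 members and 8 others. RNA was sequenced in 34 libraries of organoids, which are epithelial cultures grown in 3 dimensions. All 5 groups shared the AKP genotype. A CRISPR experiment compared 3 libraries of a Scrambled control with 9 libraries each of clone1 and clone2, both Degs1 knockouts. A hairpin experiment compared 10 libraries of shControl with 3 labelled shYAP. Scrambled and each clone are a single line, and the labels do not tell whether replicates were separate cultures. The p-values below therefore measure the spread between libraries, which may be technical.

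Carbonic anhydrases turn carbon dioxide and water into bicarbonate and a proton, and back. Car1, Car2, Car7 and Car13 work in the cytosol, whereas Car4, Car9 and Car12 hold their active site outside the cell, where they take part in setting the acidity around it. Car8 belongs to the family by sequence but lacks the catalytic activity. In the colon, Car1, Car2 and Car4 are known from the absorptive surface epithelium, where bicarbonate is exchanged for chloride. Car9 is a textbook target of the hypoxia-inducible factors (HIF), which Vhl and the prolyl hydroxylases Egln1, Egln2 and Egln3 keep low while oxygen is plentiful.

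Library totals ran from 883253 counts in clone1 replicate 2 to 6597099. Levels are given as CPM, which are counts scaled to a common library size, with TMM factors over all 34 libraries. The targeted gene Degs1 was at 8.10, 4.95 and 10.2 CPM in the Scrambled libraries. Clone1 had 0.815 to 4.59 CPM and clone2 0.219 to 2.87 CPM, both without overlap with Scrambled. Yap1 was at 9.51 to 22.1 CPM in shControl and at 20.1, 19.2 and 17.9 in the libraries labelled shYAP, so Yap1 mRNA was not lower in that group and directions below refer to "the libraries labelled shYAP". All 8 epithelial markers examined were detected in every group, with a summed level of 1753 to 3522 CPM. The 7 erythroid markers, checked because red cells also make Car1 and Car2, summed to at most 1.31 CPM in any library, and the 8 stromal markers to at most 3.12. Of the immune markers examined, Cd3e was at 0, and nearly all of the summed 11.6 to 40.9 CPM came from Cd68. The epithelial list did not stand still between groups (edgeR, threshold as below). In clone1, 3 of 8 were higher and none lower, where 5.96% and 6.71% of all genes were called. In clone2, 1 was higher and 5 lower, where 16.5% and 16.6% of all genes were called. Epcam (-0.63) and Cd68 (-0.996) were lower in the libraries labelled shYAP. The part of these markers in the values below was not tested. In bulk RNA, fewer cells of a type and less RNA per cell cannot be told apart.

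HIF binds a short DNA core, and ACGTG is a form of it. The 5 letters were searched on both strands of 300-base windows around RefSeq gene starts (GRCm38.p6), 250 bases before to 50 after. They occurred in 6447 of 32851 windows, or 19.6%. Of the 8 members, 4 had an entry, and the letters occurred in the windows of Car9 and Car4 but not of Car7 and Car12. The 4 other members are Car1, Car2, Car8 and Car13. In a list of 25 HIF target genes, 24 had an entry and 17 of these, 70.8%, held the letters in any of their windows. That share counts genes, some with several windows, whereas the 19.6% counts windows. The shares are therefore not on the same scale. The runs below show the match of Car9 beside those of 5 HIF targets whose values are given further on. Each is written on the strand that reads ACGTG, with the matched letters in capitals.

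Car9: gacgggctgtACGTGcatcggaaat
Ero1a: tcccctgcggACGTGcagcggcgcg
Vegfa: ttgctctctgACGTGggcacgcact
Ankrd37: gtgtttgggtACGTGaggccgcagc
Mxi1: cggatgatcaACGTGcagcgcctgc
Egln3: tgcatctcagACGTGagatccaggt

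The Car9 run lies at chr4:43506998-43507022, with the match 18 to 14 bases before the RefSeq start, on the strand opposite to the gene. It falls inside the gene as GENCODE M21 draws it, which begins at 43506966. The Ero1a run is at chr14:45318621-45318645 and the Vegfa run at chr17:46025360-46025384, both on the opposite strand, 63 to 59 and 211 to 207 bases before the start. Ankrd37 (chr8:45999842-45999866), Mxi1 (chr19:53329660-53329684) and Egln3 (chr12:54204089-54204113) carry the letters on the strand of the gene, 6 to 2, 25 to 21 and 229 to 225 bases before the start. Each distance is to the RefSeq start of the window that held the run. Vegfa and Mxi1 have several RefSeq starts. Their most upstream windows, chr17:46032328-46032627 and chr19:53310256-53310555, held no match. A match describes these letters and is not a measured binding site.

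Car9 (ENSMUSG00000028463, chr4:43506966-43513729, plus strand, mm10) was high in both control groups and low in the 3 others. It was at 122, 122 and 129 CPM in the Scrambled libraries (mean 125 ± 4.26, SD, n = 3). In shControl it ran from 27.0 through a median of 65.8 to 97.0 (mean 59.7 ± 28.7, n = 10). Both clones were lower than Scrambled, and clone2 was the lower of the pair. Clone1 ran from 8.24 through 13.9 to 19.6 CPM (mean 13.5 ± 3.58, n = 9). Clone2 ran from 0.441 through 1.16 to 3.15 CPM (mean 1.36 ± 0.811, n = 9), which rests on 2 to 16 counts per library. The libraries labelled shYAP were at 13.2, 11.1 and 13.5 CPM (mean 12.6 ± 1.27, n = 3), all below the lowest shControl library and inside the range of clone1. Ordered by level, the groups were Scrambled, shControl, clone1, shYAP and clone2, and of the 10 pairs of groups only clone1 and shYAP overlapped. Within an experiment, the libraries of a pair did not overlap for 10.8% to 24.7% of all genes. For pairs across the experiments this share was not computed, so the count over 10 pairs is a description.

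As a log2 difference with its standard error (SE), Car9 was -3.18 ± 0.18 in clone1 and -6.53 ± 0.22 in clone2 against Scrambled. Clone2 lay a further -3.35 ± 0.22 from clone1. In the hairpin experiment the difference was -2.25 ± 0.49. Within shControl, replicates 8 to 10 were at 28.1 to 30.6 CPM and replicate 6 at 27.0, and the other 6 libraries were at 63.2 or more. Set against shControl replicates 8 to 10 alone, the difference was -1.24.

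**Figure D1:**
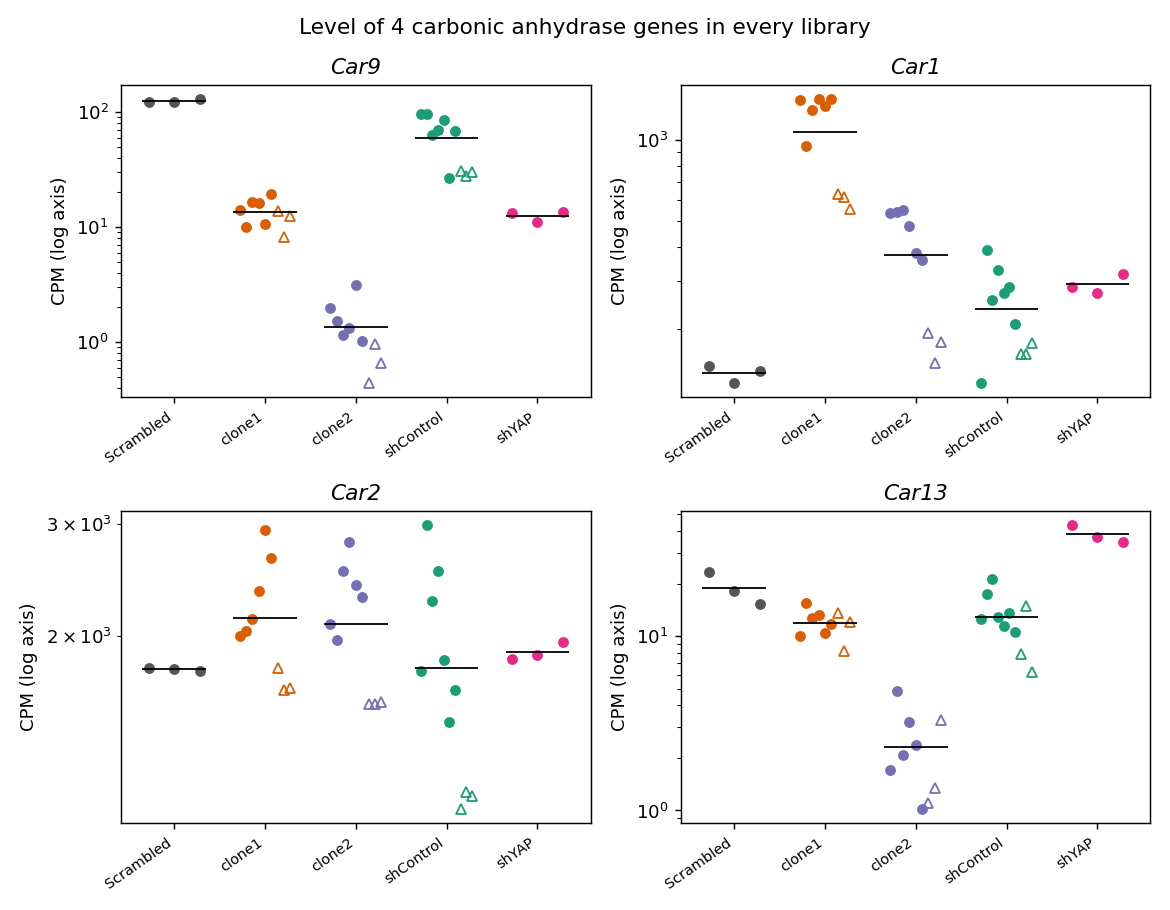
Level of Car9, Car1, Car2 and Car13 in each of the 34 libraries, in CPM on log axes, by group. Open triangles are replicates 7 to 9 of the clones and 8 to 10 of shControl, filled circles all other libraries, and black lines group means. Car9 separates all pairs of groups but clone1 and shYAP, and Car13 is highest in the 3 libraries labelled shYAP, at 34.5 to 43.4 CPM.

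Of the 8 members, Car9, Car1, Car2 and Car13 had enough counts to enter the fits across all genes, and the other 4 did not. A gene is called here when its adjusted p in edgeR's quasi-likelihood test is under 0.05. Because the members were chosen on these levels, the counts that follow are set beside those of all genes and nothing is read from them. In clone1 against Scrambled, 1 of the 4 was called higher (Car1) and 1 lower (Car9), where 5.96% of 11514 genes were called higher and 6.71% lower. The libraries of both groups did not overlap for 2 of the 4, against 10.8% of genes. In clone2 against Scrambled, Car1 was called higher and Car9 and Car13 lower, where the shares of all genes were 16.5% and 16.6%, and 3 of the 4 did not overlap, against 24.7%. Between clone2 and clone1, none of the 4 was called higher and Car9, Car1 and Car13 were called lower, where 23.6% and 25.5% of all genes were called, and the same 3 did not overlap, against 11.7%. In the libraries labelled shYAP, Car13 was called higher and Car9 lower than in shControl, where the shares were 5.47% and 5.9% of 11094 genes, and both did not overlap, against 11.3%. Leaving out any Scrambled library ended the call of Car1 in clone2 (1.37 to 1.46), and leaving out any shYAP library ended that of Car9 (-2.17 to -2.32).

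Car13, Car1 and Car2 are neighbours on chromosome 3. Together with Car3 and the pseudogenes Gm5843 and Gm16399 they span 259044 bases, and Gm16399, which lies inside Car1, had 7 counts in all libraries together. Ordered by group mean, Car1 and Car2 both ran from clone1 through clone2, shYAP and shControl to Scrambled, whereas Car13 ran from shYAP through Scrambled, shControl and clone1 to clone2.

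Car1 (ENSMUSG00000027556, chr3:14766216-14808368, minus strand) was highest in clone1. The Scrambled libraries were at 146, 126 and 140.0 CPM (mean 137 ± 10.2, n = 3). Clone1 ran from 552 through 1288 to 1413 CPM (mean 1065 ± 378, n = 9), above every library of the 4 other groups. Clone2 ran from 149 through 380.3 to 549.7 CPM (mean 373 ± 164, n = 9), above Scrambled and below clone1. The clones' log2 differences from Scrambled were 2.96 ± 0.49 and 1.42 ± 0.44, so this gene, unlike Car9, was higher than Scrambled in both, and clone2 was -1.54 ± 0.29 from clone1. In shControl Car1 ran from 126 through 232 to 390.1 CPM (mean 237 ± 84.5, n = 10), and the libraries labelled shYAP, at 285, 271 and 319 CPM (mean 292 ± 24.6, n = 3), lay inside that range. Their log2 difference was 0.30 ± 0.26. Of the 10 pairs of groups, 6 did not overlap, with the shares over all genes as given for Car9.

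Car2 (ENSMUSG00000027562, chr3:14886273-14900770, plus strand) was the member with the most counts in every group and differed least between them. It was at 1784, 1776 and 1765 CPM in Scrambled (mean 1775 ± 9.50, n = 3). Clone1 ran from 1646 through 2040 to 2942 CPM (mean 2134 ± 445) and clone2 from 1563 through 2089 to 2817 CPM (mean 2092 ± 462), n = 9 each. In shControl the range was 1071 through 1705 to 2992 CPM (mean 1783 ± 645, n = 10), and the libraries labelled shYAP were at 1844, 1871 and 1959 CPM (mean 1891 ± 60.2, n = 3). Scrambled and shYAP were the only pair of the 10 without overlap, and they belong to different experiments. Log2 differences were 0.27 ± 0.18 for clone1 and 0.22 ± 0.18 for clone2 against Scrambled, -0.05 ± 0.13 between the clones and 0.08 ± 0.27 for shYAP against shControl.

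Car1 and Car2 also varied within groups. In clone1, replicates 1 to 6 had Car1 at 945 to 1413 CPM and replicates 7 to 9 at 552 to 632, a ratio of means of 2.17. In clone2, the same sets were at 359.7 to 549.7 and at 149 to 193 CPM, a ratio of 2.72. Car2 was lower in the later replicates too, with ratios of 1.39 in clone1, 1.501 in clone2 and 1.87 in shControl, where replicates 8 to 10 were at 1071 to 1139 CPM and replicates 1 to 7 at 1463 or more. These sets were defined after the values were seen, and the labels name no sequencing batch. Later replicates lay wholly below the others for 6.24% of all genes tested in clone1, 6.12% in clone2 and 5.79% in shControl. Car2 did so in all 3 groups, Car1 in both clones and Car9 in clone2, whereas Car13 did so in none. The sets bear on the differences above. Against Scrambled, Car2 in clone2 was 0.41 with replicates 1 to 6 alone and -0.17 with replicates 7 to 9 alone, and Car2 in clone1 was 0.42 and -0.0781 with the same sets. Car2 in the libraries labelled shYAP was -0.35 against shControl replicates 1 to 4 and 0.76 against replicates 8 to 10. Car1 in clone2 was 1.79 above Scrambled with replicates 1 to 6 alone and 0.35 with replicates 7 to 9 alone, and 0.66 above shControl.

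Car13 (ENSMUSG00000027555, chr3:14641727-14663002, plus strand), a cytosolic member, was highest in the libraries labelled shYAP, at 43.4, 37.0 and 34.5 CPM (mean 38.3 ± 4.604, n = 3). Every other library was at 23.4 CPM or less. In shControl it ran from 6.22 through 12.7 to 21.3 CPM (mean 12.9 ± 4.36, n = 10), a log2 difference of 1.59 ± 0.24. The Scrambled libraries were at 23.4, 18.1 and 15.2 CPM (mean 18.9 ± 4.12, n = 3). Clone1 ran from 8.24 through 12.1 to 15.5 CPM (mean 11.9 ± 2.15, n = 9) and overlapped Scrambled, with a log2 difference of -0.68 ± 0.26. Clone2 ran from 1.02 through 2.08 to 4.82 CPM (mean 2.33 ± 1.25, n = 9), below every library of the 4 other groups, at -3.01 ± 0.27 from Scrambled and -2.33 ± 0.23 from clone1. Car13 and Car9 were thus both lowest in clone2, and in the hairpin experiment they differed in opposite directions.

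To compare genes with each other, CPM were divided by the merged exon length in kilobases. In Scrambled, Car2 was at 733 ± 3.92 CPM per kilobase, Car1 at 110.0 ± 8.18, Car9 at 54.05 ± 1.85 and Car13 at 8.22 ± 1.79. In clone1, Car1 reached 853 ± 303 CPM per kilobase beside Car2 at 881 ± 184, with Car9 at 5.86 ± 1.55 and Car13 at 5.19 ± 0.934. The nearness of Car1 and Car2 depended on the length used. With the longest transcript as length, Car1 was at 892 and Car2 at 1193 in clone1. Clone2 had Car2 at 864 ± 191, Car1 at 299 ± 132, Car13 at 1.011 ± 0.544 and Car9 at 0.589 ± 0.352 CPM per kilobase. Car9 was therefore above Car13 in Scrambled. In clone2 the mean of Car9 was below that of Car13, with 58 against 103 counts over the 9 libraries. The libraries labelled shYAP had Car13 at 16.6 ± 2.002 and Car9 at 5.47 ± 0.553 CPM per kilobase, while in shControl Car9 was at 25.9 ± 12.5 and Car13 at 5.59 ± 1.90.

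All 16 carbonic anhydrases together made up 0.338% ± 0.0726 (SD, n = 9) of a library's counts in clone1. The other groups lay lower, with 0.216% ± 0.00682 for Scrambled, 0.220% ± 0.0452 for clone2, 0.214% ± 0.0683 for shControl and 0.223% ± 0.0122 for shYAP. Of these counts, Car2 held 86.1% ± 0.522 in Scrambled and 66.9% ± 5.57 in clone1, where Car1 held 32.2% ± 5.68. Car1 held 6.66% ± 0.451 in Scrambled, 14.5% ± 4.47 in clone2, 11.5% ± 2.49 in shControl and 13.02% ± 0.659 in shYAP. The share of Car9 was 6.04% ± 0.231 in Scrambled, 2.81% ± 0.997 in shControl, 0.563% ± 0.0491 in shYAP, 0.429% ± 0.104 in clone1 and 0.0537% ± 0.0268 in clone2.

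**Figure D2:**
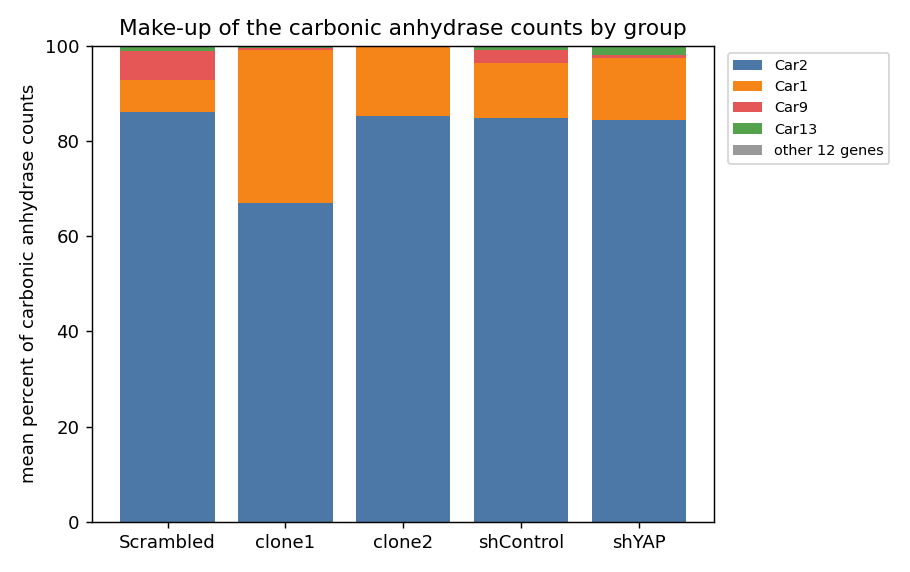
Mean percent of all carbonic anhydrase counts that came from each gene, by group, stacked to 100. Car2 takes 84.5 to 86.1% in 4 groups and 66.9% in clone1, where Car1 takes 32.2%.

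Car8, Car12, Car7 and Car4 had 73, 51, 53 and 24 counts in all 34 libraries together, and none passed the filter on low counts in either experiment. Car8 (ENSMUSG00000041261, chr4:8143362-8239041), the member without catalytic activity, had most of its counts in Scrambled, 18, 20 and 4 (4.16, 3.09 and 0.813 CPM). Clone1 had 1 count in 9 libraries, clone2 had 12 and shControl 14 in 10 libraries. Scaled by library totals, Scrambled was 99.3 times clone1 (95% interval 16.9 to 4015), 9.70 times clone2 (5.01 to 20.2, and 20.43 without clone2 replicate 4, which held 7 of the 12 counts) and 8.65 times shControl (4.63 to 17.1). These intervals, like those below, cover counting error only, and not the spread among libraries of a group, such as the 3 Scrambled libraries. The genes and groups were chosen with these levels known, so the intervals are no test of a difference.

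Car12 (ENSMUSG00000032373, chr9:66713686-66766845), which like Car9 sits in the cell membrane, was at 1.20, 0.237 and 1.99 CPM in the libraries labelled shYAP, 15 counts in all. In shControl it had 19 counts in 10 libraries, so that the ratio was 2.77 (95% interval 1.31 to 5.75), and the groups overlapped. Without shYAP replicate 3 that ratio was 1.70. Car7 (ENSMUSG00000031883, chr8:104534689-104550343) had 12 counts in the libraries labelled shYAP, at 0.479, 0.474 and 1.77 CPM, and 5 in shControl, a ratio of 8.41 (2.76 to 30.5), which was 4.32 without shYAP replicate 3 and 18.6 without shControl replicate 5. Its highest shControl library was at 0.581 CPM, above 2 of the 3 labelled shYAP. Car4 (ENSMUSG00000000805, chr11:84957786-84966044), an anchored enzyme of the colonocyte surface, was above 0 in 12 of 34 libraries, with at most 7 counts in any, in shControl replicate 7 (1.76 CPM). At these counts no order of the groups can be given for Car4.

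**Figure D3:**
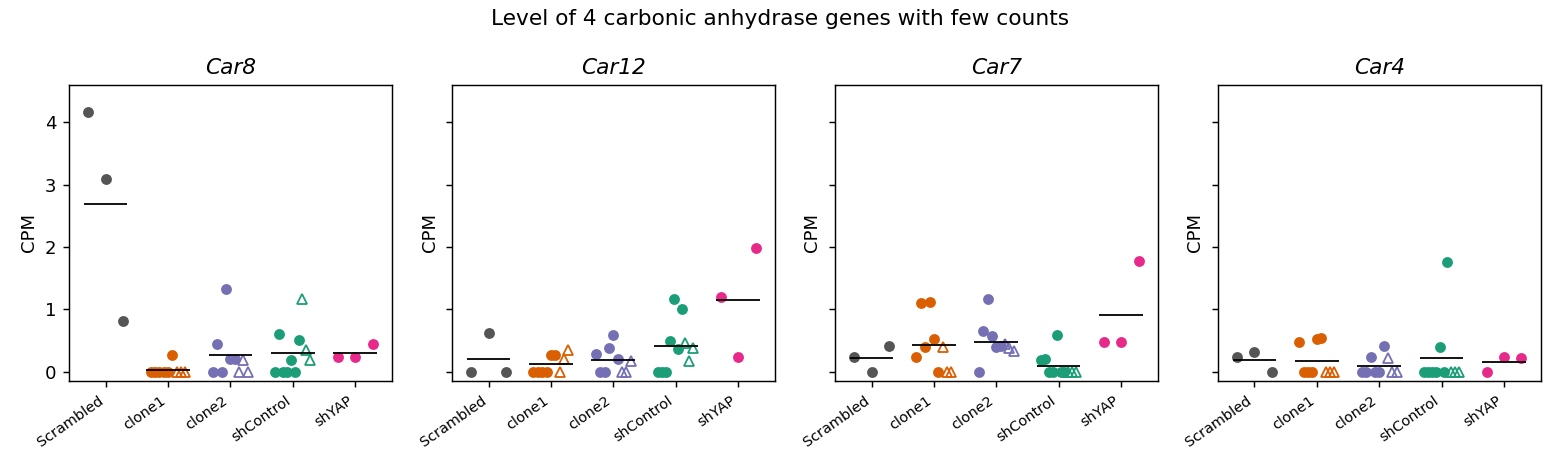
Level of Car8, Car12, Car7 and Car4 in each library, in CPM on linear axes, with symbols as in the plot of the 4 abundant members. Only Car8 in Scrambled exceeds 2 CPM, in 2 of its 3 libraries.

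The 8 other carbonic anhydrases, Car3, Car5a, Car5b, Car6, Car10, Car11, Car14 and Car15, had 2 to 106 counts each over the 34 libraries. None passed the filter in either experiment, and the highest level in any library was 3.32 CPM, of the mitochondrial Car5b.

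Car9 was next set beside the oxygen-sensing genes. Of the 8 tested, 2 rose in clone1 and none fell, with a median log2 difference of 0.20, against 0.03 over all genes. Of all genes, 5.96% rose and 6.71% fell in clone1, and 16.5% and 16.6% in clone2. Between the clones, 23.6% of all genes were higher in clone2 and 25.5% lower. Hif1a, the oxygen-regulated HIF subunit, rose from 29.0 ± 3.50 to 47.5 ± 8.58 CPM in clone1 (log2 0.70 ± 0.15, edgeR adjusted p = 9.34e-04, and 0.40 with replicates 7 to 9 alone), where Car9 was lower. The hydroxylase Egln3, itself a HIF target, rose by 0.60 ± 0.14 (edgeR adjusted p = 0.00362), a call lost without Scrambled replicate 1 (0.52) and with replicates 7 to 9 alone (0.25). In clone2, 2 of 8 rose and none fell, with a median of 0.13 against -0.03. Hif1a reached 82.1 ± 6.19 CPM there (log2 1.49 ± 0.15, edgeR adjusted p = 6.08e-10) and Egln1, the main prolyl hydroxylase, rose by 0.67 ± 0.21 (edgeR adjusted p = 0.0144), lost without Scrambled replicate 1 (0.50) and against shControl (0.30). The clone with the lower Car9 thus had the higher Hif1a mRNA, with a difference of 0.78 ± 0.10 between the clones (edgeR adjusted p = 2.37e-08). Vhl, which marks hydroxylated HIF for degradation, was at 0.04 ± 0.25 in clone1 (edgeR adjusted p = 0.952) and 0.56 ± 0.25 in clone2 (edgeR adjusted p = 0.0769). In clone2 it did pass with DESeq2 (0.58), against shControl (0.69) and without the shallowest library, clone1 replicate 2 (0.56). Between the clones, Hif1a and Vhl were higher in clone2 and Egln2, Egln3 and Hif1an lower, with a median of -0.18 against -0.05. With replicates 7 to 9 alone, Hif1a was at 1.19. The calls of Vhl (0.39), Egln2 (-0.45), Egln3 (-0.08) and Hif1an (-0.68) were lost there. That of Hif1an was also lost with replicates 1 to 6 alone (-0.40) and without the filter on low counts (-0.50).

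In the libraries labelled shYAP, Egln1 was the only 1 of the 8 that passed, at -1.38 ± 0.25 (edgeR adjusted p = 0.00125), and the median was -0.26 against -0.05. Of all genes, 5.47% were called higher there and 5.9% lower. Hif1a was at -0.08 ± 0.18 (edgeR adjusted p = 0.823), Vhl at -0.44 ± 0.31 (edgeR adjusted p = 0.385) and Egln3 at -0.62 ± 0.23 (edgeR adjusted p = 0.0774). Egln3 did pass in 1 fit of all 34 libraries (-0.62) and against shControl replicates 1 to 4 (-0.64) or 5 to 7 (-1.03). Low Car9 therefore stood beside higher Hif1a mRNA in the clones and beside Hif1a mRNA that did not pass the test in the libraries labelled shYAP. HIF activity is set largely by protein stability, which RNA does not measure.

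All 25 HIF target genes were tested in both experiments. In clone1, 1 rose (Egln3) and 6 fell, with a median of 0.02 against 0.03 over all genes, of which 5.96% rose and 6.71% fell. Slc16a3, the lactate exporter, fell from 48.2 ± 5.53 to 18.4 ± 4.74 CPM (log2 -1.41 ± 0.17, edgeR adjusted p = 1.17e-07). The oxidoreductase Ero1a fell by 0.55 ± 0.10 (edgeR adjusted p = 1.41e-04), and against shControl in place of Scrambled it was at 0.11. With that other control, 6 of the 25 rose and 3 fell. Car9 lay outside the range of the 25 in clone1, at -3.18.

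Clone2, where Car9 was lowest, had more HIF targets higher than lower. There 10 rose and 4 fell, with a median of 0.19 against -0.03, and without Scrambled replicate 1 the number that rose was 6. Of all genes, 16.5% rose and 16.6% fell in clone2. Bnip3, a mitophagy receptor, rose from 804 ± 13.9 to 2500 ± 186 CPM (log2 1.62 ± 0.13, edgeR adjusted p = 2.10e-12). Mxi1, an antagonist of Myc, rose by 0.85 ± 0.20 (edgeR adjusted p = 7.94e-04). Ero1a fell by 1.05 ± 0.10 (edgeR adjusted p = 6.80e-11), Ndrg1, a stress-response gene, by 0.94 ± 0.14 (edgeR adjusted p = 1.01e-06) and the hexokinase Hk2 by 0.76 ± 0.16 (edgeR adjusted p = 3.72e-04). With shControl in place of Scrambled, Mxi1 (0.37) and Ndrg1 (-0.12) no longer passed in clone2, and Ero1a was at -0.36 and Hk2 at -0.43. Slc16a3 fell by 0.56 ± 0.17 (edgeR adjusted p = 0.00835), a call lost without Scrambled replicate 2 (-0.49). The glycolytic enzyme Eno1 and the mitochondrial Higd1a fell in clone1, by 0.52 and 0.53, and rose in clone2, by 0.58 each. Between the clones, 12 of the 25 were higher in clone2 and 5 lower, with a median of 0.26 against -0.05. The shares of all genes were 23.6% and 25.5%.

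In the libraries labelled shYAP the HIF targets and Car9 lay on the same side. None of the 25 rose and 10 fell, with a median of -0.62 against -0.05 over all genes, of which 5.47% rose and 5.9% fell. Ero1a fell from 382 ± 127 CPM in shControl (n = 10) to 129 ± 4.91 (n = 3), a log2 difference of -1.57 ± 0.29 (edgeR adjusted p = 0.00230). The growth factor Vegfa fell by 1.47 ± 0.27 (edgeR adjusted p = 0.00136), Ankrd37 stood at -1.305 ± 0.206 (edgeR adjusted p = 2.71e-04) and Ndrg1 fell by 1.27 ± 0.16 (edgeR adjusted p = 2.12e-05). Mxi1 fell by 1.20 ± 0.33 (edgeR adjusted p = 0.0228), a call lost when any shYAP library was left out (-1.12, -1.296 and -1.204) and against shControl replicates 8 to 10 (-0.36). The number that fell was 5 without shYAP replicate 1 and 6 without replicate 2. It also moved with the control libraries, with 20 against shControl replicates 1 to 4, 19 against 5 to 7 and 8 against 8 to 10, and 1 rose against the first and 1 against the last of these sets. Against replicates 8 to 10, Ero1a was at -0.82 and Vegfa at -0.75. Of the genes with the ACGTG letters, 7 of 17 fell, and of those without, 2 of 7. The same counts were 3 of 17 and 2 of 7 in clone1, and 3 of 17 and 0 of 7 in clone2. Clone1 and clone2 share their Scrambled libraries, so their values are set side by side and not counted as separate evidence.

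**Figure D4:**
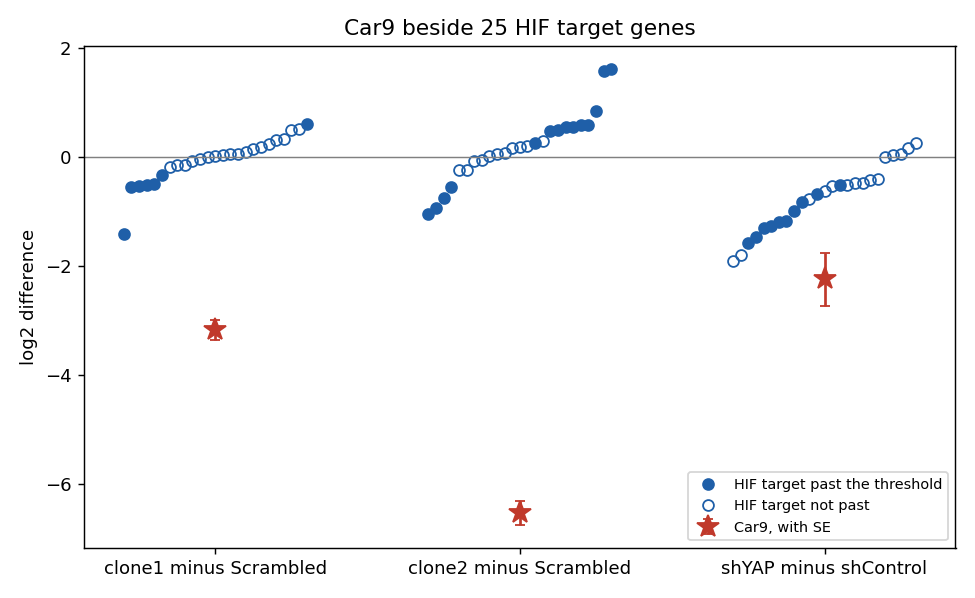
Log2 differences of 25 HIF target genes (circles, filled where edgeR's adjusted p is under 0.05) and of Car9 (star, with SE) in 3 comparisons. Car9 lies below all 25 in each comparison, at -3.18, -6.53 and -2.25, while the median of the 25 is 0.02 in clone1, 0.19 in clone2 and -0.62 in shYAP.

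Bicarbonate and protons made by carbonic anhydrases cross the membrane through exchangers and pumps. Of 25 such genes listed, 14 had enough counts in each experiment. For comparison, 5.96% of all genes rose and 6.71% fell in clone1, and 16.5% and 16.6% in clone2. The shares were 23.6% higher and 25.5% lower between clone2 and clone1, and 5.47% and 5.9% with shYAP against shControl. In clone1, 3 rose and 1 fell, with a median of 0.38 against 0.03. The monocarboxylate and proton carrier Slc16a1 rose by 1.04 ± 0.15 (edgeR adjusted p = 3.62e-06), and the others were the bicarbonate transporter Slc4a8 (1.80 ± 0.33) and the sulfate transporter Slc26a2 (1.20 ± 0.31), both named after their values were seen. The gene that fell was Slc16a3. In clone2, 2 rose and 6 fell, with a median of -0.40 against -0.03. Bsg, the chaperone of both carriers, rose by 1.14 ± 0.19 (edgeR adjusted p = 4.34e-05), and the proton exchanger Slc9a8 fell by 0.83 ± 0.29 (edgeR adjusted p = 0.0266), a call lost when any Scrambled library was left out (-0.83 to -0.84). Without Scrambled replicate 1, and without replicate 2, 3 of the 14 fell. Between the clones, 2 were higher in clone2 and 9 lower, with a median of -0.80 against -0.05. With shYAP against shControl none rose and 2 fell, Bsg (-1.09 ± 0.33, edgeR adjusted p = 0.0456) and Slc16a1 (-0.52 ± 0.17, edgeR adjusted p = 0.0444), with a median of -0.12 against -0.05, and both calls were lost when any shYAP library was left out. Bsg was at -0.19 against shControl replicates 8 to 10, no longer called.

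Car1, Car2 and Car4 are known from absorptive colonocytes, so 14 other genes of these cells were listed too. Their counts stand beside 5.96% of all genes higher and 6.71% lower in clone1, and 16.5% and 16.6% in clone2. Between clone2 and clone1 these shares were 23.6% and 25.5%, and with shYAP against shControl 5.47% and 5.9%. Guca2a, Guca2b, Aqp8, Slc26a3 and Slc37a2 were listed but had too few counts to be tested in either experiment, so the counts below do not cover them. In clone1, where Car1 was highest, 6 of 9 tested rose and 1 fell, with a median of 1.65 against 0.03. Without Scrambled replicate 3, 3 rose. In clone2, none rose and 8 fell, with a median of -1.78 against -0.03, while Car1 was 1.42 above Scrambled. All 9 were lower in clone2 than in clone1, with a median of -3.47 against -0.05. The differentiation keratin Krt20 was 1.95 ± 0.41 above Scrambled in clone1 (edgeR adjusted p = 0.00122) and fell by 1.78 ± 0.43 in clone2 (edgeR adjusted p = 0.00183). Muc13, a membrane mucin, rose by 1.65 ± 0.37 in clone1 (edgeR adjusted p = 0.00608) and fell by 2.55 ± 0.33 in clone2 (edgeR adjusted p = 8.43e-06). With shYAP against shControl, 2 of 7 tested rose and none fell, with a median of 0.20 against -0.05, and none passed when any shYAP library was left out. That count turned with the control libraries, with 1 that rose and 2 that fell against shControl replicates 1 to 4, 3 and 2 against 5 to 7, and 6 and 0 against 8 to 10.

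The genes most like each member were found from the group means of log2 CPM, centred over the 5 groups, as the root mean square difference over 6620 genes compared. The measure describes 5 group means and says nothing of shared control. For Car9, whose group means span 6.23 on the log2 scale, the nearest were Pla2g2a, a secreted phospholipase (0.76), Mgat4c, a glycosyltransferase (0.99), and Itga2, a collagen-binding integrin (1.02), where the median gene differed by 2.13. Pla2g2a was at 74.5 ± 4.79 CPM in Scrambled, 46.1 ± 23.7 in shControl, 13.4 ± 1.88 in shYAP, 6.13 ± 1.63 in clone1 and 3.33 ± 1.27 in clone2. Even this nearest gene differed less than Car9 between the clones.

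For Car1 the nearest were Prss12, a secreted serine protease (0.33), Rnase1, a secreted ribonuclease (0.38), and the alarmin Il33 (0.51), where the median gene differed by 0.98. Rnase1 was at 64.6 ± 14.8 CPM in clone1 and 44.5 ± 4.88 in clone2, against 9.25 ± 2.002 in Scrambled, 18.21 ± 9.62 in shControl and 21.1 ± 1.94 in shYAP. For Car13 they were Areg, a ligand of the epidermal growth factor receptor (0.35), the scaffold protein Iqgap2 (0.44) and the glutathione transferase Mgst2 (0.50), where the median gene differed by 1.299. Areg, like Car13, was highest in the libraries labelled shYAP, at 83.7 ± 5.18 CPM, and lowest in clone2, at 5.31 ± 2.48. Car2 varied so little that its nearest genes, Slc25a46, D5Ertd579e and Chmp3, differed from it by 0.04 to 0.05, and the median gene by 0.28.

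The genes beside the members were examined at the nearest 3 tested genes on each side. For comparison, 5.96% of all genes rose and 6.71% fell in clone1, and 16.5% and 16.6% in clone2. With shYAP against shControl the shares were 5.47% and 5.9%. Around Car9, Arhgef39, 7271 bases before it, fell in clone1 by 0.94 ± 0.21 (edgeR adjusted p = 0.00176), in clone2 by 1.12 ± 0.21 (edgeR adjusted p = 5.35e-05) and in the libraries labelled shYAP by 0.83 ± 0.22 (edgeR adjusted p = 0.0176). That last call was lost without shYAP replicate 1 (-0.71) or 3 (-0.79) and against shControl replicates 8 to 10 (-0.57). Ccdc107, 11045 bases before Car9, fell by 1.03 ± 0.31 in clone1 (edgeR adjusted p = 0.0205), lost without Scrambled replicate 1 (-0.88) or 3 (-0.99) and against shControl (-0.32), and in clone2 (-1.301 ± 0.301, edgeR adjusted p = 8.67e-04). In the libraries labelled shYAP it was at -0.71 ± 0.31 (edgeR adjusted p = 0.141). Arhgef39 and Ccdc107 thus lay on the side of Car9 in the 3 comparisons, with smaller differences. Tesk1, 58902 bases before Car9, passed in none of the 3. It was at 0.21 ± 0.56 in clone1, -0.01 ± 0.55 in clone2 and 0.90 ± 0.51 in the libraries labelled shYAP. Against shControl, Arhgef39 was at -0.54 in clone1 and -0.69 in clone2, and Ccdc107 at -0.58 in clone2. Tpm2, 982 bases after Car9, fell in clone2 (-2.90 ± 0.76, edgeR adjusted p = 0.00277) and did not pass in clone1 (-0.14 ± 0.67, edgeR adjusted p = 0.924). Tln1 fell in clone2 (-0.45 ± 0.17, edgeR adjusted p = 0.0391). Creb3, 48603 bases after Car9, lay on the other side and rose in clone2 (0.41 ± 0.13, edgeR adjusted p = 0.0169) and in the libraries labelled shYAP (0.92 ± 0.18, edgeR adjusted p = 0.00230).

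Around the chromosome 3 group, Lrrcc1, E2f5 and A930001A20Rik did not pass in either clone. Rbis, 30442 bases before Car13, rose in clone2 by 0.76 ± 0.13 (edgeR adjusted p = 2.01e-05), where Car13 was at -3.01. Ythdf3, 1282442 bases after Car2, fell there (-0.53 ± 0.17, edgeR adjusted p = 0.0168). In clone1, Car1 was at 2.96 and none of the 6 neighbours passed, where 5.96% of all genes rose and 6.71% fell. Rbis was at 0.16 ± 0.13 there (edgeR adjusted p = 0.491). For the other comparisons the shares over all genes are as given for the neighbours of Car9, and nothing is read from counts of so few genes. In the libraries labelled shYAP, where Car13 was at 1.59, Gm5844 rose (1.89, edgeR adjusted p = 0.0218), but it lies 3108036 bases after Car2, and the 5 nearer neighbours did not pass.

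**Figure D5:**
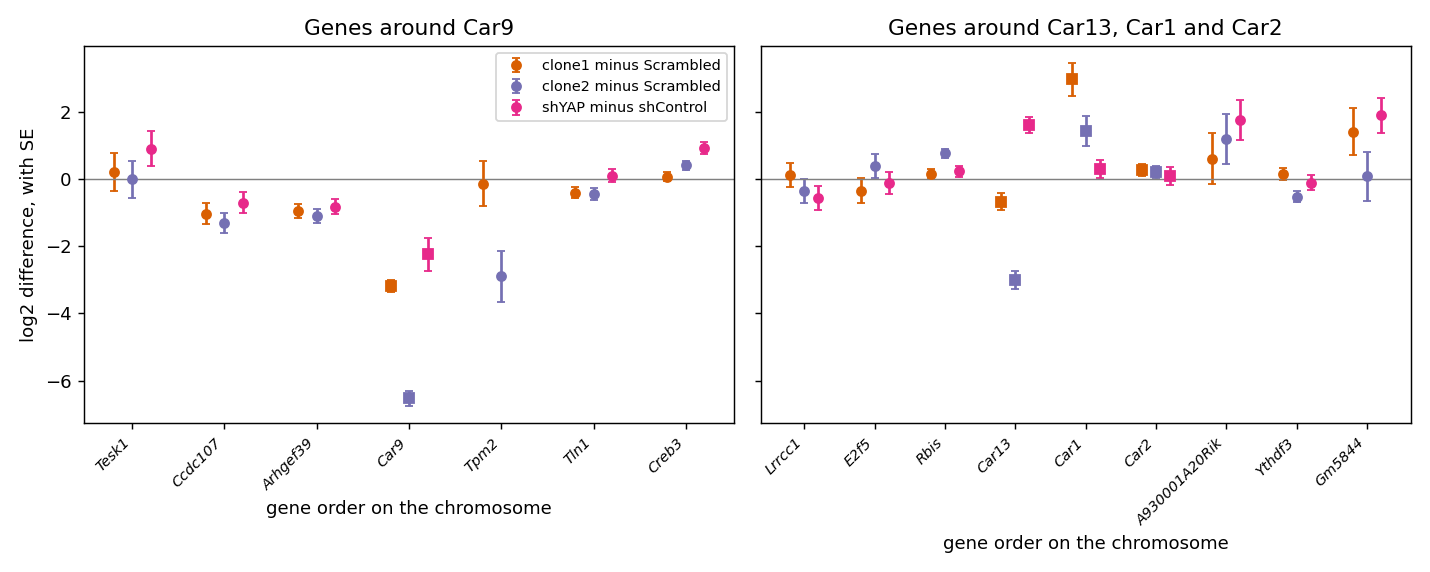
Log2 differences with SE for Car9 (left), for Car13, Car1 and Car2 (right) and for the 3 nearest tested genes on each side, in gene order with even spacing. Squares are members and circles their neighbours, and Tpm2 was not tested in the hairpin experiment. Car9 in clone2, at -6.53, lies below every neighbour, of which Tpm2 is lowest at -2.90.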

How the data were processed

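Poly(A) RNA of 34 organoid libraries was measured. Expected counts for each gene were deposited by the authors, and the submitters' processing notes name Salmon 1.3.0 and the mouse build mm10. The values were whole numbers, and the annotation release and the summing of transcripts were not given in the sources used here. Positions and exon lengths came from GENCODE M21, which held 51485 of the IDs in use. Promoter windows came from RefSeq on GRCm38.p6. The members and all gene lists were chosen with earlier results of these data known.

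Low genes were removed by filterByExpr (at least 10 counts, and 15 in total), libraries were scaled by TMM, and edgeR 4.0.16 (R 4.3.3) was run with its quasi-likelihood test in robust form. Tests were two-sided, and p-values were adjusted by Benjamini-Hochberg over all genes tested. The 21 knockout libraries shared 1 fit and the 13 hairpin libraries another. Named list genes were up to 5 per list with the largest called difference and a mean log2 CPM of at least 3, plus Hif1a, Vhl and Egln3. Same-numbered replicates did not pair libraries (correlations -0.069 to 0.076), and no libraries were duplicates. On simulated counts for clone1 against Scrambled (10960 genes), 68% of genes raised and 66% of genes lowered by a log2 fold of 1 were called. Alternatives included DESeq2 1.42.0, other scaling, no filter, a replicate block, 1 fit of all libraries, left-out libraries and subsets of replicates.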

Additional observations from a re-analysis of the deposited data

Results flagged for a closer look

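In 5 of 24 sets of libraries of a group, the highest library of a member with few counts stood apart from the rest of its group. A chance rate of about 1 in 20 groups does not apply to them. These genes had so few counts that most libraries were at or near 0, where a single count can stand apart. Car4 in shControl replicate 7 was at 1.76 CPM (7 counts), and Car7 in shControl replicate 5 at 0.581 CPM (3 counts). Car8 stood apart in clone1 replicate 6 at 0.272 CPM (1 count), in clone2 replicate 4 at 1.32 CPM (7 counts) and in shControl replicate 8 at 1.17 CPM (5 counts). The 4 abundant members had no such library in any group tested.

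Genes listed beside the members passed edgeR's threshold in both clones with opposite signs, and the difference between the clones was tested in the same fit. Clone2 minus clone1 was -6.14 for Cyp2c55, -4.20 for Muc13, -3.73 for Krt20 and -1.07 for Emp1, which were higher than Scrambled in clone1 and lower in clone2. It was 1.10 for Eno1 and 1.11 for Higd1a, which were lower in clone1 and higher in clone2. None of the 4 abundant members was called in both clones with opposite signs.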

How the results depend on the processing

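Of 176 recomputed member differences, 161 kept direction and side of the threshold. Car9 ranged from -3.44 to -2.13 in clone1, from -7.43 to -5.45 in clone2 and from -2.75 to -1.24 in shYAP. The cause of the changes below was not tested. Members were chosen on these levels, so their calls below only describe the processing, and nothing is read from them. The replicate sets were also defined after the values were seen.

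Against shControl in place of Scrambled, clone1 had 2503 calls (1459 with Scrambled), HIF targets were 6 higher and 3 lower, and Ero1a turned to 0.11. Leaving out a Scrambled library gave 779 to 1025 calls in clone1, 0 to 1 HIF targets higher there, 6 to 9 in clone2, and Car1 in clone2 from 1.37 to 1.46, no longer called. Vhl in clone1, not called, ranged from -0.185 to 0.195 in these fits. With replicates 1 to 6 alone, HIF targets higher in clone1 numbered 4, and Car2 was called at 0.42 in clone1 and 0.41 in clone2. With replicates 7 to 9 alone, these were 0 HIF targets, and Car2 turned to -0.17 in clone2 and -0.0781 in clone1. DESeq2 called Car13 in clone1 (-0.69).

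For shYAP, calls were 1261 in the 13 libraries, 2065 in 1 fit of all 34, 2604, 3024 and 2229 against shControl replicates 1 to 4, 5 to 7 and 8 to 10, and 412 to 515 without a shYAP library. HIF targets lower were 17 in the fit of all 34, 20 and 19 against shControl replicates 1 to 4 and 5 to 7, and 5 to 7 without a shYAP library, and 1 was higher against replicates 1 to 4 and 8 to 10. Car9 went from -2.17 to -2.32 without a shYAP library, no longer called. Against replicates 8 to 10, Car1 (0.80) and Car2 (0.76) were called, and Car2 turned to -0.35 against replicates 1 to 4. Hif1a, not called, ranged from -0.198 to 0.0384 without a shYAP library and was 0.0673 against replicates 8 to 10. The replicate block, for numbers that share no pairing, gave 17 HIF targets lower, turned Car2 to -0.28 in shYAP and ended the calls of Slc16a3 (-0.37), Egln1, Krt20, Cyp2c55 and Slc4a7 in clone2, Ccdc107 in clone1 and Slc16a1 in shYAP. Leaving out single libraries for ratios of few counts was chosen after seeing the data. With the longest transcript as length, 6 of 20 levels per kilobase moved beyond 1 SD. These were Car9 in Scrambled and shYAP, and Car2 in Scrambled, clone1, clone2 and shYAP.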
